A study of Homo sapiens with 39 samples.

Results

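The 10 genes described here encode the mRNA export receptor NXF1, the arginine- and serine-rich protein RSRP1, the kinases CLK1, CLK2 and CLK4, and the SR proteins SRSF2, SRSF3, SRSF5, SRSF6 and SRSF7. They were picked by name from the 15808 gene IDs of the count table because NXF1 and RSRP1 were higher with the bromodomain inhibitors in every line. All 10 were in the table, and all 10 were among the 12814 genes that passed the filter on low counts. The changes of the 10 genes against DMSO with the bromodomain inhibitors are therefore given as a description, with no p-value.

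RNA sequencing was done on 39 libraries in 13 groups of 3. DOHH2 and Toledo are lymphoma lines of the germinal centre B cell type, and OCILy10 and TMD8 are lymphoma lines of the activated B cell type. Each line was treated for 6 h with DMSO (the vehicle), with OTX015, which blocks the bromodomains of BET proteins, or with NEO2734, which blocks the bromodomains of BET proteins and of CBP and p300. OCILy10 was also treated for 6 h with CB103, an inhibitor of the Notch transcription complex. No genotype was altered and each group is a single established line in culture. No source used here gives the doses. A treatment text shared by all samples, and the design text of the series, name other compounds and times, so the label of each sample was used. Nothing in the labels tells whether replicates 1 to 3 were grown apart, so the p-values measure only the spread between libraries, which may be technical.

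Most mRNA leaves the nucleus after it has been spliced and packed with export adaptors, and NXF1 then carries it through the nuclear pore. SR proteins bind exons and help the spliceosome choose splice sites, and SRSF3 and SRSF7 are also known as adaptors that recruit NXF1. CLK kinases phosphorylate the arginine- and serine-rich tails of SR proteins inside the nucleus and release them from nuclear speckles. Many of these genes are known to control their own output through retained introns or through exons that send the transcript to nonsense-mediated decay. The counts used here are per gene, so a spliced and an intron-holding transcript of 1 gene cannot be told apart.

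In GENCODE v29 on GRCh38 (hg38) all 10 are protein-coding genes. NXF1 (ENSG00000162231.12) lies at chr11:62792123-62806302, minus strand, and RSRP1 (ENSG00000117616.16) at chr1:25242237-25338213, minus strand. CLK1 lies at chr2:200853009-200864744, minus strand, CLK2 at chr1:155262868-155278491, minus strand, and CLK4 at chr5:178602664-178630615, minus strand. The SR protein genes lie at chr17:76734115-76737374, minus strand (SRSF2), chr6:36594353-36605600, plus strand (SRSF3), chr14:69726900-69772005, plus strand (SRSF5), chr20:43457928-43464247, plus strand (SRSF6) and chr2:38743599-38751494, minus strand (SRSF7). Transcripts with a retained intron are annotated for 8 of the 10 genes (all but CLK2 and SRSF6), and for 59.6% of 11101 protein-coding genes tested. Transcripts marked for nonsense-mediated decay are annotated for 9 of the 10 (all but CLK2), and for 45.0% of the same genes. Both kinds are annotated for 8 of the 10 and for 35.1% of the genes. SRSF2 shares 1106 exon bases, 36.7% of its exon length, with MFSD11 on the opposite strand, and RSRP1 shares 297, or 4.37%, with TMEM50A on the opposite strand. The strand setting of the counting is not given in the sources used here, so reads in those stretches could belong to either gene.

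The sequence just before the transcription start is shown for the 6 genes whose change with NEO2734 passed the threshold used below, as a choice of display only. The set was picked on that comparison, and SRSF7 passed the threshold in 17 of 24 fits with 1 library left out. RefSeq (GRCh38.p14) held a promoter for 9 of the 10 genes. Each line gives the 30 bases before an annotated start, 5′ to 3′ on the gene's own strand, and capitals mark the TATA box letters TATAAA.
NXF1: TATAAAtgcggtggcgcccggcgtagggac
RSRP1: gcgccgggtccggagggagccacgcccacc
CLK2: tagctgggaagcgacgcaggacgtcggtcc
SRSF6: tatagcgaaagcctggcgcgcgcgcgcgcc
SRSF3: TATAAAtaaaggcgaggagaaggcggtggt
SRSF7 start 1: acgtatccctccgcccatgacccgcgtgtt
SRSF7 start 2: ataTATAAAcgcgaacccgggctcttcctc
In that order the stretches are chr11:62805441-62805470 (minus strand), chr1:25338255-25338284 (minus), chr1:155273505-155273534 (minus), chr20:43457866-43457895 (plus), chr6:36594332-36594361 (plus), chr2:38751495-38751524 (minus) and chr2:38751362-38751391 (minus). SRSF7 has 2 starts in RefSeq, and only the second has the box. In GENCODE v29 all 30 bases lie in an annotated exon of some transcript for NXF1, RSRP1 and the second SRSF7 start, 12 of 30 do for CLK2, 9 for SRSF3, and 0 for SRSF6 and the first SRSF7 start. TATAAA, searched on both strands, was in this 30-base window for NXF1, SRSF3 and the second SRSF7 start, which makes 3 of the 11 starts of the 9 matched genes, and for 2.18% of 35093 promoters. Over the 250 bases before the start it was found at the same 3 starts and in 10.7% of promoters. The NXF1 and SRSF3 boxes begin at the first base of the 30-base window, so the share depends on the window chosen. The box stood in 1 gene that was higher with both compounds, NXF1, and in 2 that were lower, SRSF3 and SRSF7. In the 250 bases before the start, the E-box letters CACGTG were found at 2 of the 11 starts, those of CLK2 and CLK4, and in 6.34% of promoters, and the full CRE letters TGACGTCA for none of the 11 starts and in 1.65%. A match is only a description of letters.

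The libraries fell into 2 classes by depth, which bears on several results. The total was 6670250 to 11668542 counts in 15 libraries, called deep here, and 1000281 to 3420458 in 24, called shallow. Each group had at least 1 deep and 1 shallow library, and 2 deep ones were in the OCILy10 groups with DMSO and with NEO2734. Replicate 1 was deep in every group but Toledo NEO2734, where replicate 3 was the deep library. A difference between the depth classes therefore cannot be told from a difference between replicate 1 and the other replicates. The B cell markers CD79A, CD79B, MS4A1, PAX5 and CD22 were detected in every library. Of 10 markers of other cell types, 4 were in the table, and their summed level was 0 to 17.2 CPM (counts scaled to a common library size) in a library. For each line, 8 to 18 genes were private to it, with over 10 CPM in its libraries and under 1 CPM in nearly all others, and their median level is given here relative to that line. In the 36 libraries used to choose these genes, the private genes of the other lines reached no more than 2.30%. The choice itself sets this low level, so it is no check of those 36 libraries. The other 3 libraries, left out when the genes were chosen, held more of another line's private genes. In Toledo DMSO replicate 2 the OCILy10 genes stood at 70.4% and the Toledo genes at 41.5%. In OCILy10 CB103 replicate 2 the Toledo genes stood at 27.1% and the OCILy10 genes at 75.1%. In DOHH2 NEO2734 replicate 3 the OCILy10 genes stood at 12% and the DOHH2 genes at 70.5%. Results are also given without these 3 libraries.

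NXF1 was higher with both bromodomain inhibitors than with DMSO in all 4 lines, and in each line the libraries with either inhibitor stood wholly above those with DMSO. Levels are CPM after TMM scaling, in the order of replicates 1 to 3. In DOHH2 the NXF1 level was 108, 88.5 and 149 CPM with DMSO, 179, 278 and 259 with OTX015 and 234, 383 and 417 with NEO2734. In OCILy10 it was 123, 123 and 105 with DMSO, 214, 178 and 182 with OTX015 and 285, 278 and 265 with NEO2734. In both lines the lowest treated library stood above the highest DMSO library, and in OCILy10 the 3 levels with NEO2734 also stood above the 3 with OTX015. In TMD8 it was 148, 173 and 139 with DMSO, 309, 368 and 314 with OTX015 and 365, 344 and 302 with NEO2734. In Toledo it was 132, 107 and 121 with DMSO, 273, 364 and 279.9 with OTX015 and 453, 334 and 333 with NEO2734. Again no treated library reached down to a DMSO library, while the levels with the 2 inhibitors overlapped in both lines.

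As a group mean ± SD (n = 3 in each), NXF1 went from 115 ± 30.7 to 345 ± 97.2 CPM with NEO2734 in DOHH2, and from 117 ± 10.1 to 276 ± 10.2 in OCILy10. In TMD8 it went from 153 ± 17.5 to 337 ± 32.1 and in Toledo from 119.8 ± 12.3 to 373 ± 69.1. The fitted log2 change over the 4 lines was 1.40 ± 0.10 (± SE) with NEO2734, a 2.63-fold difference, and 1.05 ± 0.10 with OTX015, a 2.08-fold one. By line it ran from 1.14 to 1.64 with NEO2734 and from 0.71 to 1.35 with OTX015, lowest in TMD8 for the former and in OCILy10 for the latter. In bulk RNA a change in the mix of cells and a change in RNA per cell cannot be told apart. Of all genes tested, 1.16% stood wholly above DMSO in all 4 lines with NEO2734 and 0.468% with OTX015.

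RSRP1 has long stretches rich in arginine and serine and its role is little known. In DOHH2 its level was 57, 39 and 44.6 CPM with DMSO, 90.4, 92 and 102 with OTX015 and 140.4, 141 and 117 with NEO2734. In OCILy10 it was 75.6, 63.1 and 65.8 with DMSO, 108, 86.7 and 118 with OTX015 and 123, 152 and 181 with NEO2734. The 3 groups of each of these lines lay in the same order, DMSO lowest and NEO2734 highest, with no overlap. In TMD8 it was 29.7, 27.7 and 34.1 with DMSO, 51.1, 45.2 and 73.2 with OTX015 and 66.7, 65.2 and 65.8 with NEO2734. In Toledo it was 53.2, 57.6 and 45 with DMSO, 93.6, 81 and 57.9 with OTX015 and 116, 43.9 and 122 with NEO2734. Toledo NEO2734 replicate 2 stood below all 3 DMSO libraries of that line, so RSRP1 was wholly above DMSO in 3 lines with NEO2734 and in 4 with OTX015. With NEO2734, 3.53% of all genes were wholly above DMSO in at least 3 lines.

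The RSRP1 log2 change over the 4 lines was 1.15 ± 0.13 with NEO2734 (2.22-fold) and 0.77 ± 0.13 with OTX015 (1.71-fold). By line it was 0.86 to 1.49 with NEO2734, highest in DOHH2 and lowest in Toledo, and 0.57 to 1.00 with OTX015, in the same 2 lines. Without the 3 libraries that hold another line's genes, the change with NEO2734 was 1.35 for NXF1 and 1.20 for RSRP1. Leaving out any 1 library gave 1.36 to 1.45 for NXF1 and 1.09 to 1.24 for RSRP1.

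**Figure D1:**
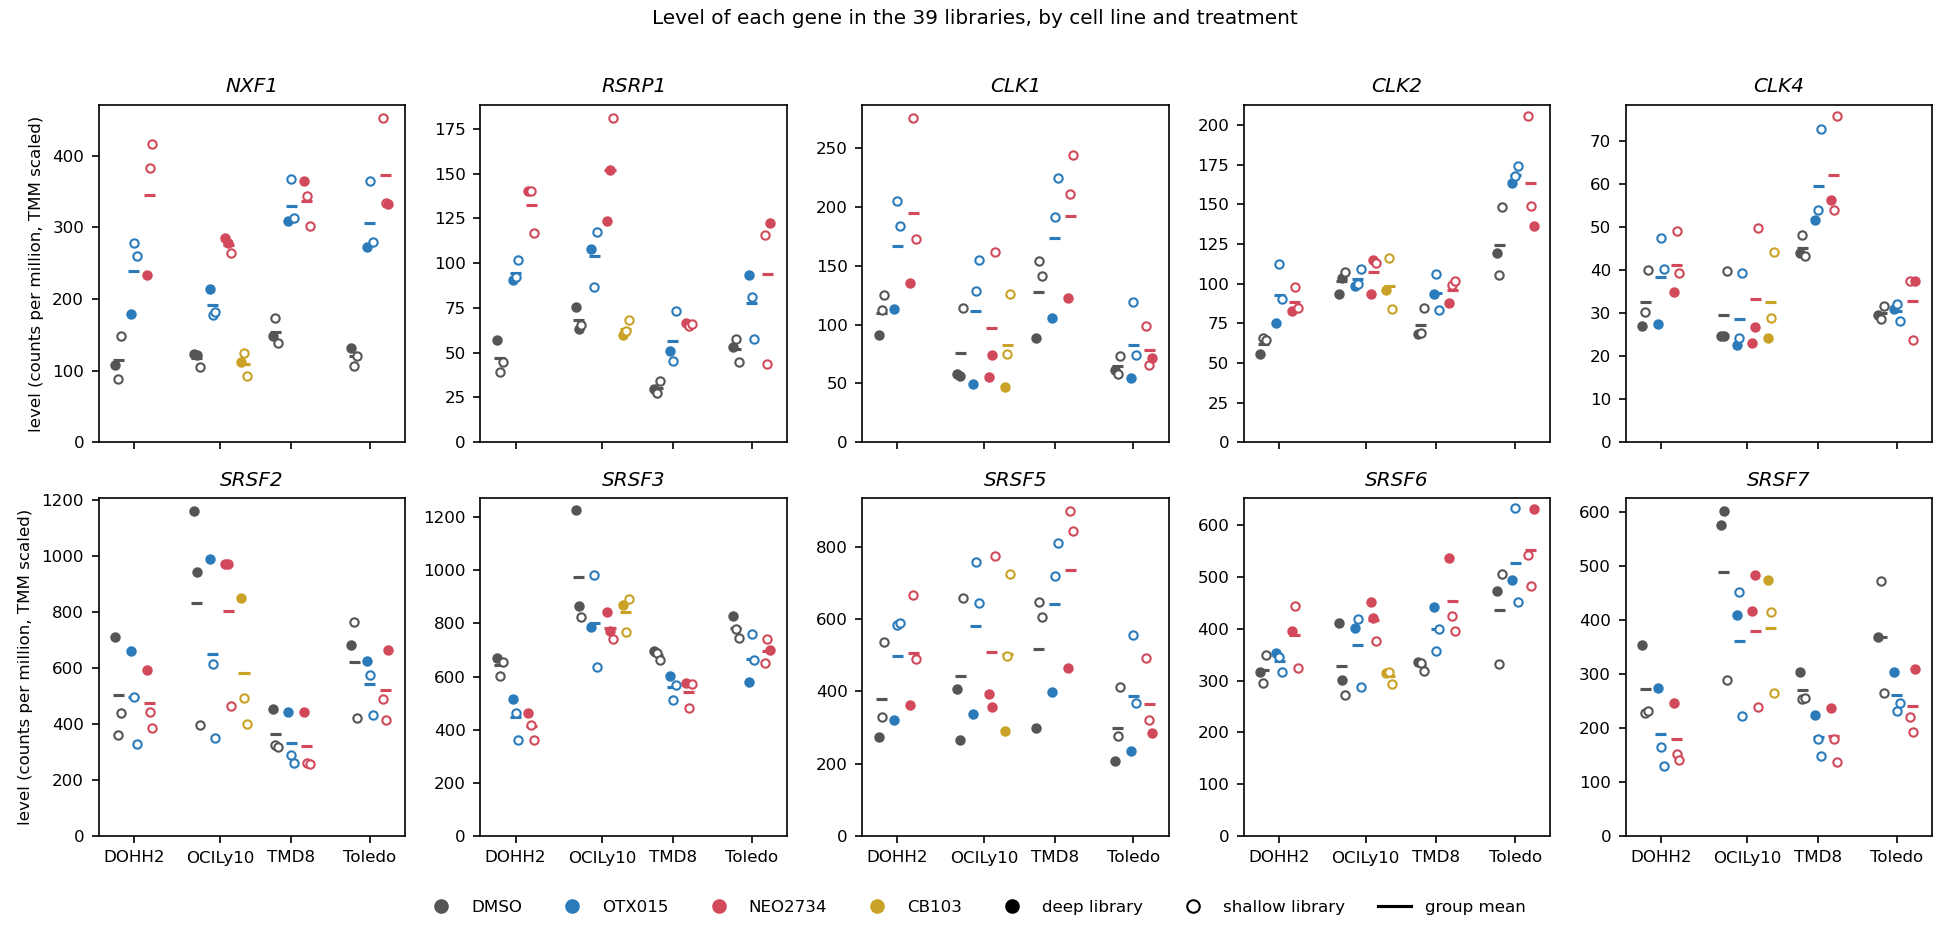
Level of each of the 10 genes (CPM, TMM scaled, linear axis from 0) in each of the 39 libraries, by cell line and treatment. Filled points are deep libraries, open points are shallow ones and bars are the means of 3 libraries; NXF1 stands above DMSO with both inhibitors in all 4 lines, while the deep points of CLK1 and SRSF5 lie low in their groups.

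The CLK kinases had smaller fitted changes than NXF1 and RSRP1, and CLK2 had the smallest error of the 3. In DOHH2 its level was 55.3, 65.6 and 64.7 CPM with DMSO, 75.4, 112 and 90.3 with OTX015 and 82.9, 97.7 and 84.9 with NEO2734. In OCILy10 it was 93.4, 104 and 107 with DMSO, 98.8, 99.6 and 109 with OTX015 and 93.2, 115 and 113 with NEO2734. CLK2 was wholly above DMSO in DOHH2 with both inhibitors, in TMD8 with NEO2734 and in Toledo with OTX015, and it overlapped DMSO in OCILy10 with both. Its log2 change over the 4 lines was 0.34 ± 0.09 with NEO2734 and 0.35 ± 0.09 with OTX015, and in OCILy10 alone 0.08 ± 0.17 and 0.02 ± 0.17. Shares of all genes that stood apart from DMSO are given only for all 4 lines and, with NEO2734, for at least 3 lines. Where a gene stood apart in fewer lines, here and below, that only describes its libraries and nothing is read from it.

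CLK1 had a log2 change of 0.52 ± 0.22 with NEO2734 and 0.49 ± 0.22 with OTX015, with larger errors than CLK2. In DOHH2 its level was 90.9, 113 and 125 CPM with DMSO and 135, 276 and 173 with NEO2734, where the groups did not overlap. In OCILy10 it was 57.8, 56.3 and 114 with DMSO and 55.2, 73.8 and 162 with NEO2734, and the third value of each group, from a shallow library, was the highest. CLK1 was lower in the deep than in the shallow libraries of its group in 13 of 13 groups, by a median log2 difference of -0.79. Within the deep libraries alone the CLK1 change was 0.34 with NEO2734 and 0.035 with OTX015, and within the shallow ones 0.59 and 0.51. CLK4 had a log2 change of 0.27 ± 0.14 with NEO2734 and 0.15 ± 0.14 with OTX015. It was wholly above DMSO only in TMD8, at 43.9, 48.2 and 43.3 CPM with DMSO, 51.7, 53.8 and 72.6 with OTX015 and 56.3, 53.8 and 75.7 with NEO2734.

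The SR protein genes did not all lie on the same side of DMSO. SRSF3, the smallest of them and an export adaptor, was lower with both inhibitors. In DOHH2 its level was 672, 602 and 656 CPM with DMSO, 516, 463 and 363 with OTX015 and 462, 417 and 362 with NEO2734. In TMD8 it was 695, 688 and 662 with DMSO, 602, 510.0 and 570.1 with OTX015 and 575, 482 and 572 with NEO2734. All treated libraries of these 2 lines stood below all their DMSO libraries. In Toledo it was 827, 779 and 745 with DMSO, 580.0, 761 and 663 with OTX015 and 651, 741 and 699 with NEO2734, apart from DMSO with NEO2734 only. In OCILy10 it was 1228, 867 and 824 with DMSO, 786, 984 and 637 with OTX015 and 841, 771 and 739.9 with NEO2734, and the groups overlapped. With NEO2734, 3.72% of all genes were wholly below DMSO in at least 3 lines. The SRSF3 log2 change over the 4 lines was -0.36 ± 0.09 with NEO2734 and -0.33 ± 0.09 with OTX015.

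SRSF7, the other export adaptor, had a log2 change of -0.53 ± 0.17 with NEO2734 and -0.50 ± 0.17 with OTX015. In TMD8 its level was 303, 254 and 255 CPM with DMSO, 224, 179 and 147 with OTX015 and 238, 179.8 and 137 with NEO2734, wholly below DMSO with each. In the other 3 lines the groups overlapped, and the deep library was the highest of its group in DOHH2 with each treatment. SRSF7 was higher in the deep libraries in 13 of 13 groups, by a median of 0.59 on the log2 scale. Its change with NEO2734 was -0.40 within the deep libraries, -0.62 within the shallow ones and -0.43 without the 3 libraries that hold another line's genes.

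SRSF6 was higher with NEO2734, by 0.36 ± 0.09, and by 0.20 ± 0.09 with OTX015. In TMD8 its level was 336, 334 and 319 CPM with DMSO, 443, 356 and 401 with OTX015 and 537, 425 and 396 with NEO2734, with no overlap with DMSO. In Toledo it was 473, 333 and 505 with DMSO and 543, 483 and 631 with NEO2734, and the groups overlapped. SRSF5 had a log2 change of 0.35 ± 0.22 with NEO2734 and 0.37 ± 0.22 with OTX015, and overlapped DMSO in all 4 lines with each. Its deep libraries stood below the shallow ones of the same group in 13 of 13 groups, by a median log2 difference of -0.93, which is larger than its change with either compound. In TMD8 its level was 299.7, 647 and 607 with DMSO and 464, 900.1 and 843 with NEO2734, where the first value of each is the deep library. SRSF2, which overlaps MFSD11, had a log2 change of -0.15 ± 0.20 with NEO2734 and -0.18 ± 0.20 with OTX015 and overlapped DMSO in all 4 lines. SRSF2 was higher in the deep libraries in 13 of 13 groups, by a median of 0.71.

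**Figure D2:**
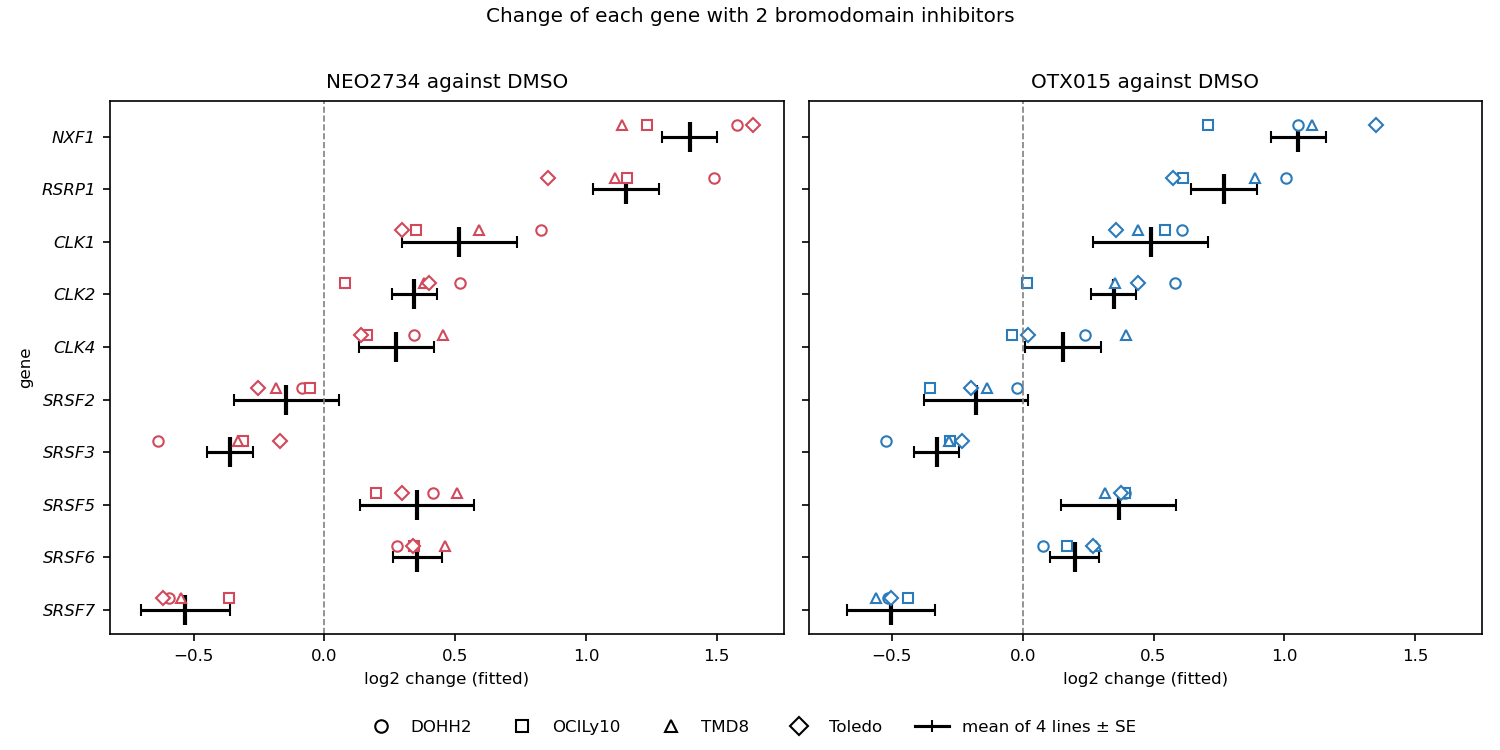
Fitted log2 change against DMSO of each of the 10 genes, with NEO2734 (left) and OTX015 (right). Open symbols are the 4 lines, and black bars are the mean of the 4 lines ± SE; the NXF1 means are 1.40 and 1.05, those of RSRP1 1.15 and 0.77, and SRSF3 and SRSF7 lie below 0 in every line.

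Counted by an adjusted p under 0.05 in edgeR's quasi-likelihood fit of all genes, 4 of the 10 genes were higher with NEO2734 (NXF1, RSRP1, CLK2 and SRSF6) and 2 lower (SRSF3 and SRSF7). Of all genes, 20.5% were called in this comparison, 9.29% higher and 11.2% lower. With OTX015, 3 of the 10 were higher (NXF1, RSRP1 and CLK2) and 1 lower (SRSF3), where 11.6% of all genes were called, 5.53% higher and 6.06% lower. The genes were chosen on these comparisons, so nothing is read from these counts. The same holds for which of the 10 genes pass the threshold in the other fits below. The median log2 change of all genes was -0.02 with NEO2734 and -0.03 with OTX015, and that of the 10 genes was 0.35 and 0.27. Without the 3 libraries that hold another line's genes, SRSF7 was no longer past the threshold with NEO2734. The same held when any 1 of 7 libraries was left out: DOHH2 DMSO replicate 1, OCILy10 DMSO replicate 2, Toledo DMSO replicate 2, Toledo NEO2734 replicate 2, or NEO2734 replicate 3 of DOHH2, OCILy10 or TMD8. Within the deep libraries NXF1 and RSRP1 were past the threshold with NEO2734 and NXF1 with OTX015. Within the shallow libraries NXF1, RSRP1, CLK1 and SRSF7 were past it with NEO2734, and NXF1 and RSRP1 with OTX015. With OTX015, SRSF7 lay just outside the threshold and SRSF3 inside it, and SRSF7 was past it with RLE size factors, upper quartile scaling, DESeq2 or depth class as a covariate. With that covariate CLK1 and SRSF5 were also past it with each compound.

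The difference between depth classes was as large as the change with either compound for CLK1, CLK4, SRSF2, SRSF5 and SRSF7. For NXF1 the median log2 difference between deep and shallow libraries of a group was -0.06 (lower in 7 of 13 groups), and for RSRP1 it was 0.06 (higher in 8 of 13). Within the deep libraries alone the NEO2734 change was 1.22 for NXF1 and 1.15 for RSRP1, and within the shallow ones 1.48 and 1.19. Medians were -0.13 for CLK2 (lower in 13 of 13 groups), -0.33 for CLK4 (lower in 11), 0.12 for SRSF3 and 0.20 for SRSF6 (each higher in 11). Of all genes, 43.7% differed by 0.5 or more between the classes, around a median of 0.07. What sets the 2 classes apart was not tested. The share of counts in mitochondrially encoded genes was 6.25 to 11.6% in the deep libraries and 5.31 to 12.7% in the shallow ones.

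**Figure D3:**
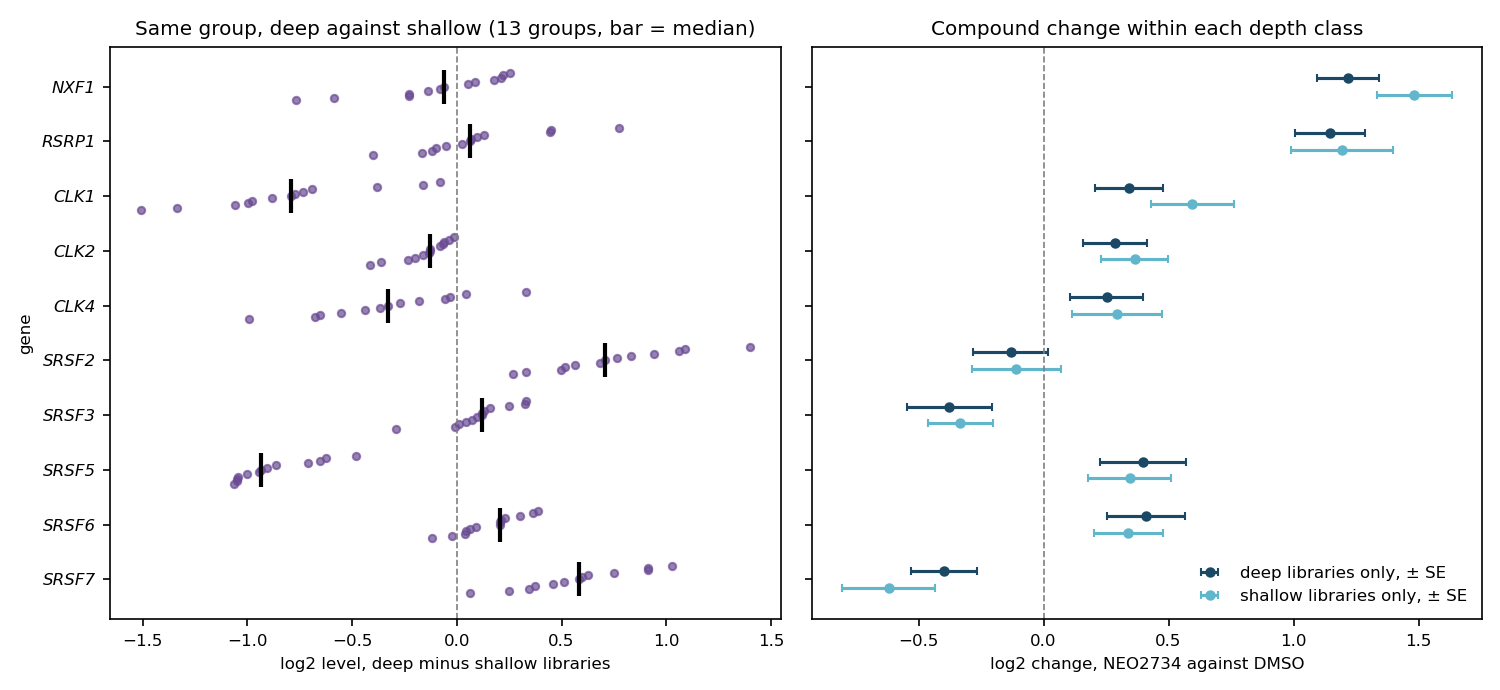
Left, log2 level of each gene in the deep minus the shallow libraries of the same group; each point is 1 of 13 groups and the black bar is their median. Right, log2 change with NEO2734 against DMSO over 4 lines (± SE) within each depth class; CLK1 and SRSF5 lie below 0 and SRSF2 and SRSF7 above 0 in all 13 groups on the left, while NXF1 and RSRP1 lie between 1.15 and 1.48 within both classes on the right.

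The other genes of mRNA processing were taken as 8 lists of known function, 152 of whose 155 genes were tested. With NEO2734, 11 of the 152 rose and 13 fell at an adjusted p under 0.05, which is 15.8% against 20.5% of all genes. With OTX015, 8 rose and 7 fell, which is 9.87% against 11.6%. These shares were below that of all genes, and they carry no test of the lists. All p-values in this paragraph and the next 3 are from edgeR's quasi-likelihood test with Benjamini-Hochberg adjustment over all genes, and all changes are log2 ± SE over the 4 lines.

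Of the 6 other SR proteins tested, 2 fell and none rose with either compound. SRSF1, which activates many splice sites, fell with NEO2734 (-0.37 ± 0.07, adjusted p = 0.000352) and with OTX015 (-0.25 ± 0.07, adjusted p = 0.0171). SRSF8, a close relative of SRSF2, fell with NEO2734 (-0.71 ± 0.14, adjusted p = 0.000472) and OTX015 (-0.52 ± 0.14, adjusted p = 0.0153). None of the 8 SR protein kinases and their nuclear importer passed the test, with log2 changes of -0.30 to 0.60 with NEO2734. Among 31 SR-related splicing factors 5 rose and none fell with each compound. TRA2A, a splicing activator of the transformer family, rose with NEO2734 (0.55 ± 0.13, adjusted p = 0.00253). CCNL2, an L-type cyclin found in nuclear speckles, rose with NEO2734 (0.64 ± 0.16, adjusted p = 0.00571) and OTX015 (0.51 ± 0.16, adjusted p = 0.0401). LUC7L, a factor of the U1 snRNP, rose with NEO2734 (0.46 ± 0.14, adjusted p = 0.022) and OTX015 (0.49 ± 0.14, adjusted p = 0.0235). SRRM2, a scaffold of nuclear speckles, rose with OTX015 (0.44 ± 0.12, adjusted p = 0.0125). The OTX015 call of CCNL2 held in 9 of 24 fits with 1 library left out (adjusted p up to 0.108), and the LUC7L calls in 21 of 24 with each compound. The LUC7L call with NEO2734 was lost without OCILy10 DMSO replicate 1 (adjusted p = 0.053), OCILy10 NEO2734 replicate 3 (0.0576) or Toledo NEO2734 replicate 1 (0.052). With OTX015 it was lost without OCILy10 DMSO replicate 1 (adjusted p = 0.0741), Toledo DMSO replicate 1 (0.0547) or TMD8 OTX015 replicate 3 (0.0573).

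Of 31 mRNA export factors 3 rose and 1 fell with NEO2734, against 2 and 0 with OTX015. GLE1, which releases mRNA at the outer face of the nuclear pore, rose with NEO2734 (0.45 ± 0.09, adjusted p = 0.000352) and OTX015 (0.33 ± 0.09, adjusted p = 0.012). DDX39B, the helicase of the TREX export complex, rose with NEO2734 (0.45 ± 0.11, adjusted p = 0.00342) and OTX015 (0.41 ± 0.11, adjusted p = 0.0132). ENY2, a small subunit of the TREX-2 complex, rose with NEO2734 (0.34 ± 0.12, adjusted p = 0.0468), and this call held in 6 of 24 fits with 1 library left out (adjusted p up to 0.1). XPO1, the exportin for proteins and some RNAs, fell with NEO2734 (-0.43 ± 0.13, adjusted p = 0.017). The log2 changes of the 31 with NEO2734 ran from -0.63 to 0.45.

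Of 22 hnRNP proteins, which coat nascent RNA, 8 fell and none rose with NEO2734, and 5 fell with OTX015. HNRNPD fell with NEO2734 (-1.09 ± 0.16, adjusted p = 1.32e-05) and OTX015 (-0.68 ± 0.16, adjusted p = 0.00472), and its relative HNRNPDL fell with NEO2734 (-1.02 ± 0.19, adjusted p = 0.000288) and OTX015 (-0.63 ± 0.19, adjusted p = 0.0299). HNRNPA3 fell with NEO2734 (-0.84 ± 0.15, adjusted p = 0.000149) and OTX015 (-0.53 ± 0.15, adjusted p = 0.0185). The OTX015 call of HNRNPDL held in 12 of 24 fits with 1 library left out (adjusted p up to 0.0641). The median of the 22 was -0.24 with NEO2734. Of 36 core spliceosome genes 2 fell with NEO2734 and none passed with OTX015, SF3B3 (-0.42 ± 0.10, adjusted p = 0.00252), a subunit of the U2 snRNP, and SNRPF (-0.49 ± 0.14, adjusted p = 0.0125), an Sm ring protein. Of 14 nonsense-mediated decay factors 2 rose with NEO2734, EIF4A3 (0.44 ± 0.08, adjusted p = 0.000159), the helicase of the exon junction complex, and SMG6 (0.33 ± 0.11, adjusted p = 0.0346), the endonuclease. SMG6 also rose with OTX015 (0.44 ± 0.11, adjusted p = 0.00928), and its NEO2734 call held in 12 of 24 fits with 1 library left out (adjusted p up to 0.0761). Of 4 nuclear retained long RNAs KCNQ1OT1 rose with NEO2734 (0.65 ± 0.21, adjusted p = 0.0272), in 18 of 24 such fits. It was lost without the 3 libraries that hold another line's genes (adjusted p = 0.0723), and without any 1 of OCILy10 DMSO replicate 1 or 2, TMD8 DMSO replicate 1, Toledo DMSO replicate 2, DOHH2 NEO2734 replicate 2 or OCILy10 NEO2734 replicate 3 (up to 0.0765).

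Some groups hold 1 library within a depth class, so for the listed genes only log2 changes are given by class. Each called change named above kept its direction within both classes. With NEO2734, HNRNPA3 changed by -0.58 within the deep libraries and -1.03 within the shallow ones. GLE1 changed by 0.32 and 0.56, and TRA2A by 0.46 and 0.60.

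**Figure D4:**
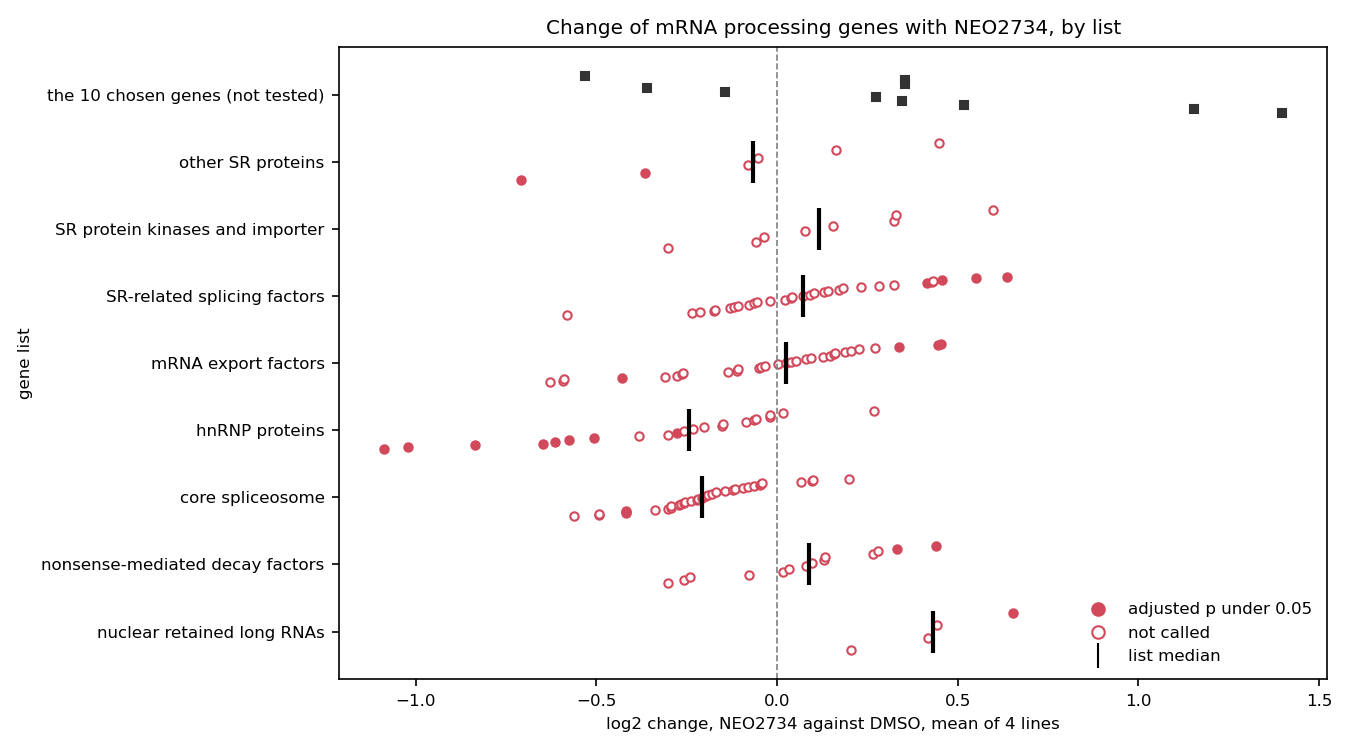
Log2 change with NEO2734 against DMSO, mean of 4 lines, of the genes of 8 lists and, in the top row, of the 10 chosen genes. That row is labelled not tested because these genes were chosen on this comparison, and their calls are not marked. Filled points passed an adjusted p of 0.05 and black bars are list medians; of the listed genes HNRNPD (-1.09) and HNRNPDL (-1.02) lie farthest to the left and KCNQ1OT1 (0.65) farthest to the right.

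NEO2734 and OTX015 were compared directly over the 4 lines. NXF1 was 0.34 ± 0.10 higher (log2 ± SE) with NEO2734 than with OTX015 and RSRP1 0.38 ± 0.12 higher, given with no test because these 2 genes were chosen on both compounds. By line the NXF1 difference was 0.53 in DOHH2, 0.53 in OCILy10, 0.03 in TMD8 and 0.29 in Toledo. For RSRP1 it was 0.49 in DOHH2, 0.54 in OCILy10, 0.22 in TMD8 and 0.28 in Toledo. Of the other 8 genes, none was called by edgeR's quasi-likelihood test, and none had an unadjusted p under 0.05, where 0.0312% of all genes were called and 499 of 12814 had an unadjusted p under 0.05. DESeq2 and limma-voom also called none of the 8. The 95% interval of the difference was -0.17 to 0.16 for CLK2, -0.20 to 0.14 for SRSF3 and -0.03 to 0.34 for SRSF6. It was wider for CLK1, at -0.40 to 0.45, and SRSF5, at -0.44 to 0.41. The doses are unknown, so it is not known whether the compounds were matched in strength.

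CB103 was compared with DMSO in OCILy10, with the same DMSO libraries that took part in the choice of the genes. With CB103 the NXF1 level was 112, 124 and 93 CPM and that of RSRP1 59.9, 62 and 68.2, and both overlapped DMSO. The log2 change was -0.09 ± 0.21 for NXF1, with a 95% interval of -0.50 to 0.31, and -0.11 ± 0.25 for RSRP1, with -0.60 to 0.38. SRSF2 had the lowest of the 10 changes, -0.52 ± 0.40, and SRSF5 the highest, 0.18 ± 0.44. With 1 library left out these ran from -0.91 (without CB103 replicate 1) to -0.22 (without DMSO replicate 1) for SRSF2. For SRSF5 they ran from -0.17 (without CB103 replicate 3) to 0.58 (without DMSO replicate 3), and SRSF5 was also below 0, at -0.079, without DMSO replicate 2. NXF1 was at 0.015 without CB103 replicate 3. None of the 10 was called by edgeR's quasi-likelihood test and none had an unadjusted p under 0.05. Of all genes 0% were called and 273 of 12814 had an unadjusted p under 0.05. OCILy10 CB103 had 1 deep and 2 shallow libraries and OCILy10 DMSO 2 deep and 1 shallow. CB103 replicate 1, the deep library, differs between the counts used here and the authors' other counts. CB103 replicate 2 is the library with Toledo genes at 27.1%. DESeq2, limma-voom and the fit without the libraries that hold another line's genes called none either.

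In DMSO the levels of 3 of the 10 genes differed between the lines by edgeR's quasi-likelihood F-test over all genes, where 48.1% of all genes did. CLK2 (adjusted p = 6.91e-05) was highest in Toledo, at 124 ± 22 CPM (mean ± SD, n = 3), then OCILy10 at 101 ± 7.28, TMD8 at 73.8 ± 9.35 and DOHH2 at 61.9 ± 5.68. By the pairwise edgeR tests no neighbours in this order differed (adjusted p = 0.272, 0.0549 and 0.305), while Toledo differed from TMD8 (0.00168) and from DOHH2 (8.05e-05), and OCILy10 from DOHH2 (0.00179). Of all genes, 24.9% differed between TMD8 and Toledo, 23.5% between DOHH2 and Toledo, and 30.1% between DOHH2 and OCILy10. RSRP1 (adjusted p = 0.00337 by the edgeR F-test) was highest in OCILy10, at 68.1 ± 6.59, then Toledo at 52 ± 6.40, DOHH2 at 46.9 ± 9.23 and TMD8 at 30.5 ± 3.29. Neighbours did not differ by the edgeR tests (adjusted p = 0.324, 0.77 and 0.0635), and TMD8 was lower than OCILy10 (0.00114) and Toledo (0.024). Of all genes, 20.8% differed between OCILy10 and TMD8. SRSF3 (adjusted p = 0.018 by the edgeR F-test) was highest in OCILy10, at 973 ± 222, then Toledo at 783 ± 41.3, TMD8 at 682 ± 17.3 and DOHH2 at 643 ± 36.4. It was higher in OCILy10 than in DOHH2 (edgeR adjusted p = 0.0084) and TMD8 (0.0325), and no neighbours differed.

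Toledo DMSO replicate 2 is the library with OCILy10 genes at 70.4%. Without the 3 libraries that hold another line's genes, the same 3 genes passed the edgeR F-test, CLK2 at an adjusted p of 5.41e-05, RSRP1 at 0.00477 and SRSF3 at 0.0148. Fits within a depth class hold fewer libraries, and only OCILy10 has more than 1 deep DMSO library. A call lost there therefore cannot be told from lower precision, and dependence on depth was not tested. The CLK2 call held within the deep libraries (adjusted p = 0.0486 in edgeR) and within the shallow ones (0.0225). RSRP1 held within the deep libraries (adjusted p = 0.0388 in edgeR) and not within the shallow ones (0.188). SRSF3 held within neither (edgeR adjusted p = 0.263 and 0.533), and it was lost without OCILy10 DMSO replicate 1 (0.139), whose level was the highest of the DMSO libraries. The other 7 genes did not pass the edgeR F-test. NXF1 had an adjusted p of 0.246, at 153 ± 17.5 CPM in TMD8, 119.8 ± 12.3 in Toledo, 117 ± 10.1 in OCILy10 and 115 ± 30.7 in DOHH2 (n = 3 in each). Without OCILy10 DMSO replicate 3, the shallow library of that group, SRSF2 and SRSF7 also passed (edgeR adjusted p = 0.0179 and 0.0259), which made 5 of 10. SRSF2 also passed without DOHH2 DMSO replicate 1 (0.0469), and SRSF6 without Toledo DMSO replicate 2 (0.0269).

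Between genes, levels were compared per kilobase of annotated exon. That length joins the exons of all annotated transcripts of a gene, those with a retained intron included, so the order depends on it. Before the division SRSF3 stood above SRSF2 in DMSO in each line, at 643 against 504 CPM in DOHH2 and 973 against 835 in OCILy10. In DMSO, as a mean of the 4 lines, SRSF2 stood at 193 CPM per kilobase, SRSF3 at 108, SRSF7 at 86.5, SRSF6 at 77.0 and SRSF5 at 76.5. CLK2 stood at 24.6, NXF1 at 20.4, CLK1 at 18.3, RSRP1 at 7.26 and CLK4 at 4.33. All 5 SR protein genes stood above the kinases, NXF1 and RSRP1. The lowest count behind any value was 31, for CLK4, and 44 for RSRP1, 101 for NXF1 and 506 for SRSF3.

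The genes whose pattern was most like that of NXF1 and RSRP1 were ranked by Pearson's r over 12 groups, each line centred on its own mean, among 12064 genes. For NXF1 they were the histone gene H2BC21 (r = 0.996), the acetyltransferase-like NATD1 (0.991), the heparan sulfate epimerase gene GLCE (0.991), the reticulophagy receptor gene RETREG3 (0.990) and SERTAD1 (0.988), a regulator of CDK4. With NEO2734 their log2 changes were 3.13, 2.17, 1.61, 0.66 and 2.61. For RSRP1 they were TXNIP (r = 0.988), which binds thioredoxin, the kinase gene CAMK2G (0.983), the ubiquitin ligase adaptor gene ZYG11B (0.983), the neuroligin gene NLGN2 (0.982) and METTL14 (0.982), a subunit of the m6A methyltransferase. Their log2 changes with NEO2734 were 1.30, 0.58, 0.87, 1.10 and 0.40. All 12 points share their libraries and depth across genes, and the choice of the best of 12064 makes these values high, so they carry no p-value.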

How the data were processed

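Total RNA was sequenced from 39 libraries. The values are raw counts per gene, deposited by the authors as a table of 15808 IDs; a further table of counts equals it in 38 of 39 columns (OCILy10 CB103 replicate 1 differs) and was an alternative. Per the labels' protocols RNA came from Trizol and libraries from an Illumina TruSeq RNA kit. STAR, edgeR and hg38 are named in the submitters' processing notes, without versions; the sources used here name no counter, annotation or strand setting. Symbols matched 15590 IDs. From the counts, edgeR 4.0.16 in R 4.3.3 gave TMM scaling, filterByExpr by group (12814 genes) and a quasi-likelihood fit with 13 group coefficients and 26 residual degrees of freedom; p-values were Benjamini-Hochberg adjusted over all genes. The script was tested on simulated counts. DESeq2 1.42.0 and limma 3.58.1 were alternatives. Depth classes were split at 5000000 counts. The members and lists were chosen with earlier results of these data known. In each list and comparison, up to 3 called rises and 3 called falls of largest size with at least 5 CPM in a group were named, and the 5 genes most like NXF1 and RSRP1. Log2 levels for likeness used a prior count of 2. Exon lengths came from GENCODE v29, promoters from RefSeq GRCh38.p14. A further marker gene is not reported here.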

Additional observations from a re-analysis of the deposited data

How the results depend on the processing

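Every member's log2 change with NEO2734 and OTX015 kept its direction under the alternative scalings, tools and filters, in each depth class, without the 3 libraries that hold another line's genes, and with any 1 library left out. With depth class as a covariate, listed mRNA processing genes called rose from 24 to 48 with NEO2734 and from 15 to 32 with OTX015, and members that differed between lines in DMSO from 3 to 8. The deep libraries alone called 6 listed genes with NEO2734 and 0 with OTX015, the shallow ones 3 with OTX015; these fits hold fewer libraries. RLE size factors, upper quartile scaling and DESeq2 each called 5 members between lines in DMSO. With 1 library left out the listed genes called were 20 to 29 with NEO2734 and 12 to 17 with OTX015, members between lines 2 to 5, and members 0 to 0 with NEO2734 against OTX015 and with CB103. Same-numbered libraries deviated together at r over 0.1 in 9 of 9 pairs of groups and numbers in DOHH2 and in TMD8. In OCILy10 14 of 18 did and in Toledo 3 of 9 (lowest r = -0.77). The same number gave the highest r in 5 of 9 pairs in DOHH2 and 7 of 9 in TMD8. It did so in 11 of 18 in OCILy10 and 1 of 9 in Toledo. The lowest r of Toledo and of OCILy10 (-0.63) each joined a deep and a shallow library, so depth class and pairing cannot be told apart in r. The numbers were not taken to pair the libraries. With the replicate block within lines the members past the threshold were those of the fit without it plus CLK1 and CLK4 with NEO2734, and plus CLK1 and SRSF7 with OTX015. With the replicate block 47 listed genes were called with NEO2734, 32 with OTX015 and 7 members between lines in DMSO; members called with CB103 and with NEO2734 against OTX015 were 0. The cause of these differences was not tested. No share of all genes called is given for these other fits, so nothing about the listed genes or the members is read from their counts. The lowest total, 1000281 counts, and the 3 libraries a group limit the precision.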

Other observations

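The mean level of HNRNPD, which binds AU-rich RNA, was 1015 ± 235 CPM with DMSO and 375 ± 52.7 with NEO2734 in DOHH2 (± SD, n = 3 in each group). It was 607 ± 142 and 255 ± 33.9 in OCILy10, 936 ± 212 and 484 ± 19.7 in TMD8, and 1295 ± 619 and 789 ± 112 in Toledo, where 1 DMSO library holds genes of another line. With OTX015 it stood between the other 2 groups in each line, at 511 ± 20.5, 421 ± 245, 549.9 ± 88.2 and 954 ± 179 in the same order of lines.

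Over the 12 line-centred groups, CLK1 followed SRSF5 at r = 0.96 and ran against SRSF3 at r = -0.97. CLK1 and SRSF5 were also the 2 genes that were lower by the largest medians in the deep libraries, at -0.79 and -0.93. The groups share libraries and depth across genes, the genes were chosen on the same comparisons, and the values carry no p.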
